A study of Mus musculus with 2 samples.

Results

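Expression of 10 genes of the Notch pathway was examined in mammary basal cells after macrophage depletion. The 10 genes were 4 receptors (*Notch1*, *Notch2*, *Notch3* and *Notch4*), 4 ligands (*Dll1*, *Dll4*, *Jag1* and *Jag2*) and 2 genes that Notch is known to switch on (*Hes1* and *Hey1*). They were picked by symbol, as receptors, ligands and targets of the pathway, from the 49492 genes of the count table, and all 10 were found and passed the filter on low counts. The basal cells were sorted by FACS as lineage-negative CD24+ CD29hi cells from adult wild-type (WT) female mice, where the lineage gate takes out CD45+, CD31+ and TER119+ cells. The CL basal library came from mice given clodronate liposome (CL), vesicles that kill the macrophages that take them up. The Ctrl basal library came from control mice, whose treatment is labelled as none and elsewhere given as saline. Both libraries were labelled day 7, and neither group carried a transgene or a mutated allele according to the labels. How many mice stood behind a library was not given in the sources used here.

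With 1 library per group, none of the differences below has a replicate check. The libraries held 37846008 counts (Ctrl basal) and 38962512 counts (CL basal). Intervals cover counting error at 95% and treat every count as independent. Counts from 1 to 20 were even in 67.9% (Ctrl basal) and 68.7% (CL basal) of cases, as when both mates of a read pair are counted, so intervals were also computed on counts cut to 1 in 2. A gene was said to differ on the reads at an adjusted p under 0.05 (two-sided exact binomial test, Benjamini-Hochberg over 17356 genes), and was called where it also changed by at least 2-fold. This test compares 2 libraries and not 2 treatments. Where a pair of counts is given without a library, that of CL basal comes first.

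Notch receptors are transmembrane proteins that are activated by ligands of the Delta-like (Dll) and Jagged (Jag) families on a neighbouring cell. Ligand binding lets ADAM proteases and then γ-secretase cut the receptor, and the freed intracellular part enters the nucleus, binds the DNA-binding protein Rbpj and Maml coactivators, and turns on genes of the HES and HEY families, which are transcriptional repressors. In the mammary gland, Notch signalling is known for its part in luminal fate, while basal cells carry ligands. *Dll1* on mammary stem cells has been described as a signal to macrophages, which is why the pathway is of interest after their removal. *Dll4*, *Notch4* and *Hey1* are also well known in endothelium, and *Notch3* in the mural cells (pericytes and vascular smooth muscle) of small vessels.

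A few stretches of sequence are shown here. Those of *Dll1* and *Dll4* bear on how the counts of these genes can be read, and that of *Notch3* does not. Each is the 250 bases before a start site in RefSeq (GRCm38.p6), written 5′ to 3′ on the strand of the named gene. *Dll1* (chr17:15376933-15377182, minus strand, before its upstream start) and *Dll4* (chr2:119325534-119325783, plus strand) begin beside a gene on the other strand, and *Notch3* (chr17:32166891-32167140, minus strand) was the member that differed most. For *Dll4*, capitals mark the 31 bases that are exon of the opposite-strand gene *Gm14207*. For *Notch3*, capitals mark 2 N-boxes (CACNAG, searched on both strands), the element that HES repressors are known to bind. The *Dll4* stretch also holds 1 N-box (CACTAG), which is left in lower case. All 250 bases shown for *Dll1* are exon of the opposite-strand gene *A930024N18Rik* and are left in lower case.
*Dll1*: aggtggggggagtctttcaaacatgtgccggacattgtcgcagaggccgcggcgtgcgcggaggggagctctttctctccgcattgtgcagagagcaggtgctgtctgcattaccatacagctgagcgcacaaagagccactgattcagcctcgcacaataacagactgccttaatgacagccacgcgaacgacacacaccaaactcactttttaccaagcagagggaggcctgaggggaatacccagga
*Dll4*: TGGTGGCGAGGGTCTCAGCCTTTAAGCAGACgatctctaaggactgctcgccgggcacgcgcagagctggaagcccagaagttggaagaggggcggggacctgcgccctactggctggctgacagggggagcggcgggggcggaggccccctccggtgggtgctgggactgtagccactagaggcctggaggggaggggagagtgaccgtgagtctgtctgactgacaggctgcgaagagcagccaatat
*Notch3*: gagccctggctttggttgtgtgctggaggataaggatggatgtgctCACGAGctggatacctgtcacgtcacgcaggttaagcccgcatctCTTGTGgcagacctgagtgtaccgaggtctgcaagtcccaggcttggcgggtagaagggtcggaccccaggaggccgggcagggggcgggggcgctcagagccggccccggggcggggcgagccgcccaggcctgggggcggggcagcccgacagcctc

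RefSeq windows around the start (250 bases before it and 50 after) were found for 8 members, 9 windows in all, since *Dll1* has 2. *Hes1* and *Hey1* had no entry. The Rbpj motif GTGGGAA, its shorter form TGGGAA, which lies within it, and the E-box CACGTG were in 0 of the 9 windows, against 6.38%, 25.6% and 7.15% of all 32851 windows. The N-box was in 5 of the 9, those of *Notch1*, *Notch2*, *Notch3*, *Dll4* and 1 of the 2 of *Dll1*, against 42.5% of all. These letters describe the windows and do not show a bound factor.

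Of the 10 members, 5 shared exon bases with another gene. The use of strand in counting was not stated, so reads from these bases cannot be assigned. *Dll1* (chromosome 17, 15367354 to 15376872, GRCm38) had the largest share of its own length, with 867 of its 4219 exon bases (20.5%) also in exons of *A930024N18Rik*, which held 1032 counts in CL basal against 776 in Ctrl basal, equal to 12.0% and 11.1% of those of *Dll1*. *Dll4* (chromosome 2, 119325784 to 119335962) shared 214 bases with *Gm14207*, which had 130 and 155 counts, equal to 29.8% and 27.5% of those of *Dll4*. *Notch3* (chromosome 17, 32120820 to 32166880) shared 488 bases with the opposite-strand *Gm17276* (95 and 142 counts). *Notch1* (chromosome 2, 26457903 to 26516663) shared 1068 bases with *0610009E02Rik* and 414 with *Gm13568*, both on the other strand, and *Notch2* (chromosome 3, 98013527 to 98150361) shared 541 with *Gm42820* on its own strand. Taking every count of these neighbours away from the member left *Dll1* at a log2 fold change of 0.29, *Dll4* at -0.42, *Notch3* at -0.72, *Notch1* at 0.14 and *Notch2* at 0.06. The overlaps thus moved none of the 5 values by more than 0.05. *Jag1*, *Jag2*, *Hes1*, *Hey1* and *Notch4* shared no exon base with another gene of the table.

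The levels of the members spanned a wide range. Levels are CPM (counts divided by the scaled library size) per kilobase of exon, the scale on which different genes can be set side by side. In Ctrl basal the order was *Jag1* (74.1), *Hes1* (46.4), *Dll1* (43.2), *Jag2* (14.3), *Notch2* (9.57), *Notch1* (5.88), *Hey1* (4.38), *Notch3* (4.24), *Dll4* (3.81) and *Notch4* (0.346). In CL basal it was *Jag1* (79.3), *Dll1* (53.2), *Hes1* (39.3), *Jag2* (15.0), *Notch2* (9.93), *Notch1* (6.41), *Hey1* (4.52), *Dll4* (2.94), *Notch3* (2.60) and *Notch4* (0.342). *Dll1* and *Hes1* stood in opposite order in the 2 libraries, also with the counts of overlapping genes subtracted. *Notch3* and *Dll4* did so as deposited but not after that subtraction, which left *Dll4* below *Notch3* in both (2.07 and 2.29 in CL basal, 2.76 and 3.78 in Ctrl basal).

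*Jag1*, *Dll1* and *Jag2* thus lay above every receptor in both libraries. Of the neighbours in these orders, *Hey1* and *Notch3* in Ctrl basal did not differ beyond counting error (ratio 1.03, interval 0.934 to 1.14). *Notch3* over *Dll4* in Ctrl basal (1.11, 1.01 to 1.23) and *Dll4* over *Notch3* in CL basal (1.13, 1.01 to 1.28) differed narrowly, and no longer once counts were halved (0.968 to 1.29 and 0.958 to 1.34). The other neighbours differed beyond counting error, also with counts halved, the closest being *Hes1* over *Dll1* in Ctrl basal (1.08, 1.03 to 1.12). Exon length was that of the count table, which joins the exons of all transcripts of a gene. For *Notch1* this gave 14232 bases, against 9488 in the principal transcript of GENCODE M21. With principal transcript lengths the order was the same in both libraries, but *Notch1* (8.83 in Ctrl basal, 9.62 in CL basal) came near *Notch2* (9.82 and 10.2).

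**Figure D1:**
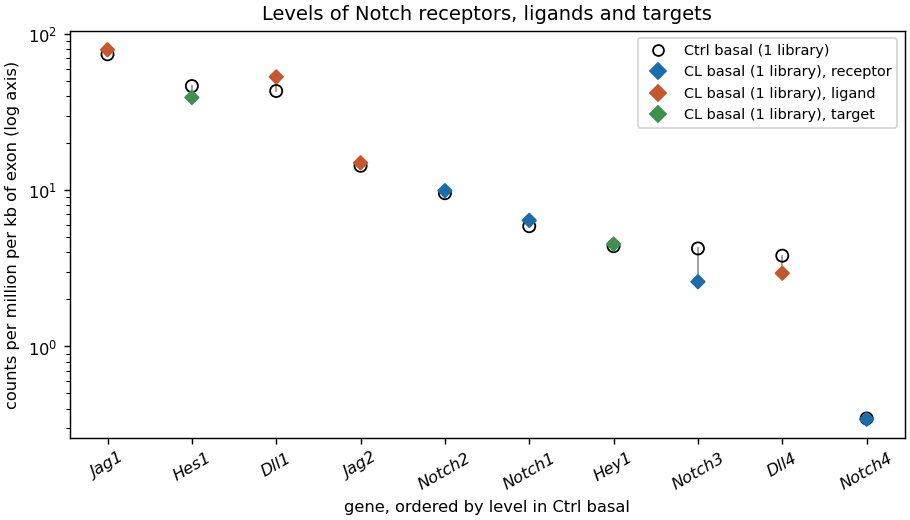
Level of each gene in the 2 libraries, in CPM per kilobase of exon on a log axis (circles, Ctrl basal; diamonds, CL basal, coloured by role; 1 library each, so no error bars). *Jag1* was highest in both libraries and *Notch4* lowest, and the widest gap between circle and diamond was that of *Notch3* (4.24 and 2.60).

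Of the receptors, *Notch3* was lower in CL basal and *Notch1* and *Notch2* changed little. None of the 10 members was called at 2-fold, where 4.19% of all tested genes were called lower and 1.87% higher (6.06% in all). *Notch3* had 803 counts in CL basal against 1308 in Ctrl basal (20.9 and 34.1 CPM). The log2 fold change was -0.71 (-0.84 to -0.58; adjusted p = 3.66e-27, exact binomial test), a level 0.613 times that of the control. *Notch3* was the only member past 1.5-fold, a threshold at which 8.54% of tested genes were called lower and 4.1% higher. Among the 5592 genes with at least 1000 and under 10000 counts summed over both libraries, 1.98% changed as much or more in either direction. Its interval with counts halved was -0.89 to -0.53.

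*Notch1*, a receptor of luminal progenitors, had 3509 counts in CL basal against 3212 in Ctrl basal. The log2 fold change was 0.12 (0.05 to 0.19; adjusted p = 0.00164, exact binomial test), and 60.1% of genes of like count changed as much or more. The adjusted p of *Notch1* was just above 0.05 with counts halved (exact binomial test), and 0.16 after removal of the dependence of fold change on mean expression (log2 fold change 0.06). *Notch2* had 4118 and 3956 counts, and its log2 difference was 0.05 (-0.01 to 0.12), and *Notch4* (chromosome 17, 34564268 to 34588503) had 106 and 107 (-0.02, -0.42 to 0.38). The interval of *Notch4*, the member with the fewest counts, was the widest, so a moderate change in either direction was not detectable at this depth.

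Within a library, the ratio of 2 genes does not depend on scaling. There were 0.331 counts of *Notch3* for each of *Notch2* in Ctrl basal and 0.195 in CL basal, a log2 change of -0.76 (-0.90 to -0.62). Against *Notch1* the change was -0.83 (-0.98 to -0.69), and against *Notch4* it was -0.69 (-1.10 to -0.28). *Notch1* against *Notch2* changed by 0.07 (-0.02 to 0.16). Per length, *Notch3* made up 21.2% of the summed receptor level in Ctrl basal and 13.5% in CL basal, while *Notch2* went from 47.7% to 51.5% and *Notch1* from 29.4% to 33.3%.

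Of the ligands, *Dll1* was higher in CL basal and *Dll4* lower, and *Jag1* and *Jag2* stayed near level. Over all members, 3 were lower on the reads and 3 higher at any fold, where 22.0% of tested genes were lower and 22.6% higher. Taking both directions, 6 of 10 members differed, beside 44.6% of tested genes. That share rose with depth, from 23.0% of genes under 100 counts to 36.6% under 1000, 58.5% under 10000 and 82.4% above, and the count of members that differed was close to these shares. *Dll1*, a Delta-like ligand known from mammary stem cells, had 8623 reads counted in CL basal against 6984 in Ctrl basal (224 and 182 CPM). The log2 fold change was 0.30 (0.25 to 0.35; adjusted p = 6.72e-37, exact binomial test). Among the 1505 genes with at least 10000 counts, 16.1% changed as much or more.

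*Dll4*, the Delta-like ligand best known from sprouting vessels, had 436 counts in CL basal against 563 in Ctrl basal (11.3 and 14.7 CPM). The log2 fold change was -0.37 (-0.56 to -0.19; adjusted p = 0.00024, exact binomial test), and 36.4% of the 6410 genes with at least 100 and under 1000 counts changed as much or more. *Dll1* and *Dll4* moved apart: the ratio of *Dll4* to *Dll1* changed by -0.67 on the log2 scale (-0.86 to -0.49).

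*Jag1* (chromosome 2, 137081456 to 137116644), the Jagged ligand with the most counts, had 17770 in CL basal against 16568 in Ctrl basal. The difference of 0.10 on the log2 scale (0.07 to 0.13) was small, 63.8% of the deepest genes changed as much or more, and it did not pass the test after removal of that dependence (0.01, adjusted p = 0.54, exact binomial test). *Jag2* (chromosome 12, 112908590 to 112929495) had 2335 and 2228 counts, and its log2 difference was 0.06 (-0.02 to 0.15). The 2 Jagged genes kept their ratio, with 0.131 counts of *Jag2* for each of *Jag1* in CL basal against 0.134 in Ctrl basal, while *Dll1* to *Jag1* changed by 0.20 (0.15 to 0.26). Summed over the 4 ligands there were 29164 counts in CL basal against 26343 in Ctrl basal, a log2 ratio of 0.14.

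Of the targets, *Hes1* was lower in CL basal, and a difference of *Hey1* was not detectable at this depth. *Hes1* (chromosome 16, 30064384 to 30067796), a repressor of the HES family that many signals besides Notch control, had 3075 counts in CL basal against 3627 in Ctrl basal (80.0 and 94.6 CPM). The log2 fold change was -0.24 (-0.31 to -0.17; adjusted p = 7.9e-11, exact binomial test), and 31.0% of genes of like count changed as much or more. *Hey1* (chromosome 3, 8663359 to 8667256), of the related HEY family, had 567 and 549 counts, and the difference on the log2 scale was 0.04 (-0.13 to 0.21). The ratio of *Hes1* to *Hey1* changed by -0.28 (-0.47 to -0.10).

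The spread between animals cannot be had from these libraries. With an assumed coefficient of variation of 0.1 between replicates, edgeR's exact test gave *Notch3* an adjusted p of 0.025 and the other 9 members 0.417 or more. With 0.2 the adjusted p of *Notch3* was 1, as it was for all members.

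**Figure D2:**
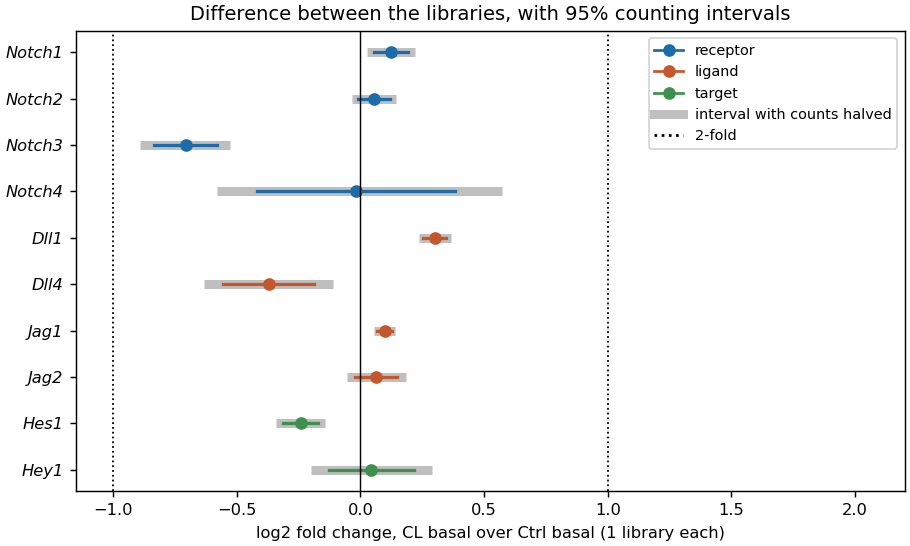
Log2 fold change of CL basal over Ctrl basal for each gene, with its exact 95% counting interval (coloured line) and that with counts halved (grey bar); dotted lines mark 2-fold. *Notch3* (-0.71), *Dll4* (-0.37) and *Hes1* (-0.24) lay below 0 and *Dll1* (0.30) above it, and none reached a dotted line.

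**Figure D3:**
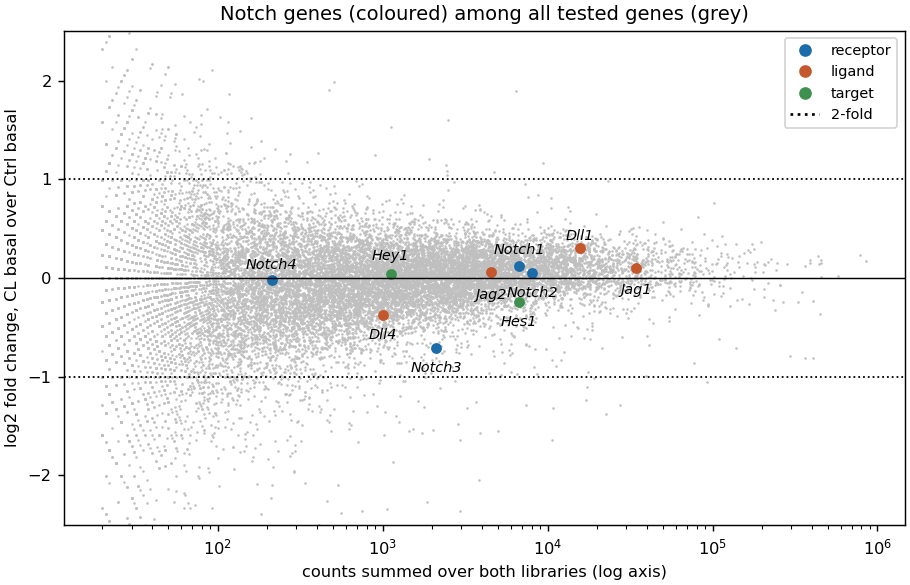
Log2 fold change of each of the 17356 tested genes (grey) against its counts summed over both libraries, on a log axis; 80 genes lie outside the plotted range of 2.5 either way. *Notch3* lay at the lower edge of genes of like count, and the other 9 members lay inside the grey cloud.

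The other genes of the pathway were described by a list of 68 genes in 10 classes, which included the members. Of its 58 other genes, 51 had enough counts, with 13 lower on the reads and 21 higher at any fold, where 22.0% of all tested genes were lower and 22.6% higher. With counts halved, 6 were lower and 17 higher, where 2253 of all 17356 tested genes were lower and 2563 higher. Their median log2 fold change was 0.06, against -0.01 over all tested genes. Called at 2-fold were 3 of the 51, all lower and all of few counts, where 4.19% of all tested genes were called lower and 1.87% higher. With counts halved, 1 of the 3 was still called. *Neurl1b*, a ubiquitin ligase of ligand endocytosis, had 4 counts in CL basal against 22 in Ctrl basal (-2.003, -4.46 to -0.91). *Hes6*, a HES family member that opposes *Hes1*, had 20 and 48 (-1.19, -2.10 to -0.49), and *Dlk2*, a Delta-like protein without the full ligand structure, had 40 and 85 (-1.05, -1.67 to -0.53).

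The HES and HEY family beside *Hes1* and *Hey1* held little RNA, and what could be tested was lower. *Hes2* and *Hes5* had 0 counts in both libraries, which allows up to 0.078 CPM in each. *Hes3* (2 and 6 counts) and *Hes7* (5 and 6) were too low to test. The 3 others that were tested all differed on the reads. *Heyl*, a target known downstream of Notch3, had 105 counts in CL basal against 190 in Ctrl basal (-0.85, -1.22 to -0.51), and *Hey2*, known from vessels and heart, had 36 and 68 (-0.89, -1.55 to -0.32), beside *Hes6* above. Together with *Hes1*, 4 of the 5 tested genes of the family were lower on the reads and 0 higher, and the counts were the same under each other scaling and each trend correction. Over all tested genes, 22.0% were lower and 22.6% higher. With counts halved, 2 of the 5 were lower, where 2253 of all 17356 tested genes were. At a preset coefficient of variation of 0.1, edgeR's exact test left 1 of the 5, where 722 of all 17356 were lower. Mural markers (median -0.54, 6 of 6 tested lower) and luminal markers (median -0.87, 11 of 12 lower) were lower in the same library. Against the summed mural list *Heyl* changed by -0.32, with an interval that held 0 (-0.67 to 0.03). The part of mural or luminal RNA in the differences of these genes was not tested. *Nrarp*, another target that feeds back on Notch, had 232 and 302 counts (-0.38, -0.64 to -0.13).

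Genes of the nuclear complex and the corepressors lay at or above 0 in most cases. Of 8 nuclear complex genes, 5 were higher on the reads and 0 lower, led by *Rbpj*, with 6803 counts in CL basal against 5082 in Ctrl basal (0.42, 0.36 to 0.47). The lowest of the 8 was *Kat2b*, an acetyltransferase (-0.17, -0.33 to -0.02), which did not pass the test. Of 10 corepressors, 7 were higher and 0 lower, with *Tle1* (0.48, 0.39 to 0.56) at the top and *Cir1* (-0.08, -0.18 to 0.03) at the bottom. Genes of many counts leaned upward in general, with a median of 0.09 at 10000 counts or more. Most genes of both classes had over 1000 counts, where 33.8% (under 10000 counts) and 58.1% (10000 or more) of all tested genes were higher on the reads. At a preset coefficient of variation of 0.1, edgeR's exact test found 0 genes of either class higher or lower. With the dependence on mean expression removed, 4 genes of each of these classes were higher and 0 lower, and with scaling by total counts 1 nuclear complex gene was lower.

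Of 10 genes of receptor proteolysis, 4 were lower and 4 higher on the reads, and 3 lower and 1 higher with counts halved. Over all tested genes 22.0% were lower and 22.6% higher, and with counts halved 2253 of 17356 were lower and 2563 higher. Of those with at least 1000 and under 10000 counts, 58.5% differed with full counts. *Adam10*, the protease of the first cut after ligand binding, had 2208 counts in CL basal against 2936 in Ctrl basal (-0.41, -0.50 to -0.33). In γ-secretase, *Aph1a* (191 and 284 counts) was lowest at -0.57 (-0.85 to -0.31) and *Aph1b* (78 and 40) highest at 0.93 (0.39 to 1.55). Of 10 genes whose proteins limit the signal, 4 were lower and 4 higher on the reads, and 1 lower and 4 higher with counts halved. The shares over all tested genes at each setting were those given above. They ran from *Numbl* (526 and 909 counts, -0.79, -0.95 to -0.64) to *Dtx2* (409 and 309 counts, 0.40, 0.18 to 0.62). *Numb*, the relative of *Numbl*, went the other way (5042 and 4348 counts, 0.21, 0.15 to 0.27).

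The 5 glycosyltransferases that modify Notch receptors held 0 genes that differed on the reads, from *Poglut1* (-0.14, -0.33 to 0.05) to *Pofut1* (0.22, -0.04 to 0.48). Their summed counts ran from 40 (*Mfng*) to 1004 (*Rfng*). Of all tested genes, 23.0% with under 100 counts, 36.6% with 100 to 999 and 58.5% with 1000 to 9999 differed. *Mib1*, the main ubiquitin ligase of ligand endocytosis, had 5006 counts in CL basal against 4080 in Ctrl basal (0.29, 0.23 to 0.35). Of the remaining ligands, *Dll3* had 12 and 4 counts and *Dner* 0 and 4, too few to test, and *Dlk1* had 26 and 24 (0.10, -0.75 to 0.98).

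**Figure D4:**
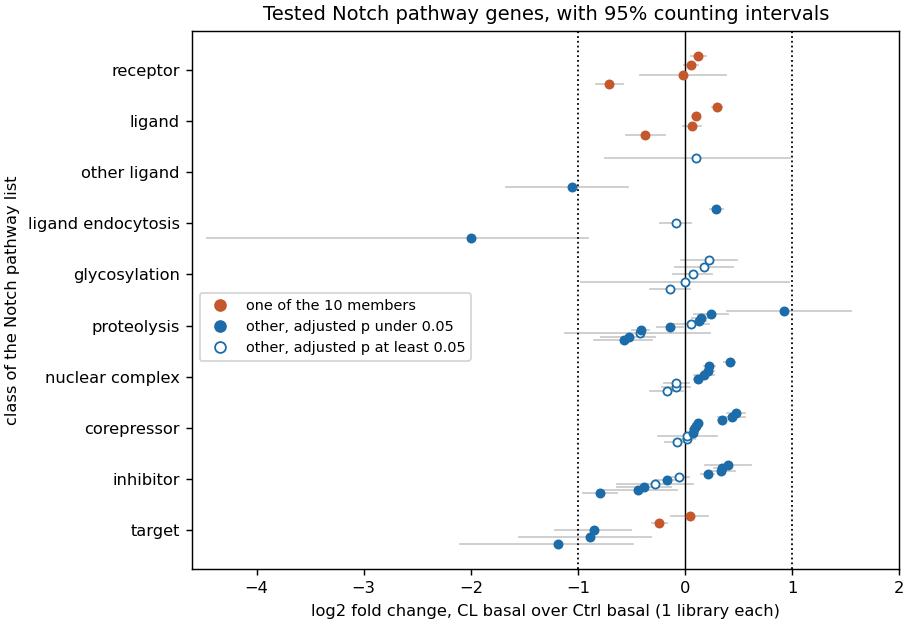
Log2 fold change of CL basal over Ctrl basal for the 61 tested genes of the pathway list by class, each with its exact 95% counting interval (grey line); dotted lines mark 2-fold. The 7 genes under the filter are not drawn. The HES and HEY genes beside the members lie left of 0, and most corepressors lie right of it.

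Markers of cell types were examined beside these values, since a sorted population can hold other cells. In bulk RNA, fewer cells of a type and less RNA per cell cannot be told apart. The basal markers *Krt14*, *Krt5*, *Acta2*, *Myh11* and *Trp63* had 5984 to 285095 counts each in Ctrl basal, and the 10 basal and myoepithelial markers had a median log2 fold change of 0.09. Luminal RNA was also plentiful, with *Krt8* at 53150 counts in CL basal against 86539 in Ctrl basal. Per kilobase of exon in Ctrl basal, *Krt8* (1250 CPM) and *Krt18* (925) lay above *Krt5* (560) and *Acta2* (754), and *Krt14* (3126) above all of these. In CL basal *Krt8* (766) was still above *Krt5* (479) and *Acta2* (738). All 12 luminal markers were at or above 69 counts in each library, and their median was -0.87, with 11 lower on the reads and 0 higher. The macrophage list held few counts, with 1000 summed in CL basal against 1068 in Ctrl basal, and 2 of its 8 tested genes were lower on the reads and 1 higher (1 and 0 with counts halved), with a median of -0.28. *Mrc1* had 86 and 168 counts (-0.95, -1.36 to -0.59), *Cd68* had 185 and 233 (-0.33, -0.62 to -0.05), and *Mertk* had 421 and 353 (0.25, 0.04 to 0.46). Of the defining markers too low to test, *Adgre1* had 10 and 7 counts, *C1qb* 6 and 12, and *Fcgr1* 4 and 0. The lymphoid list had 727 and 760, and 0 of its 8 tested genes differed on the reads.

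*Notch3* was lower, as were most markers of mural, luminal and fibroblast cells. All 6 tested of the 7 mural markers were lower on the reads, with a median of -0.54 (range -0.81 to -0.47), and the mural list held 2995 counts in CL basal against 4343 in Ctrl basal. *Higd1b* was the 1 defining mural marker at 0 in a library (0 counts in CL basal, 7 in Ctrl basal). There were 0.268 counts of *Notch3* for each count of the mural list in CL basal against 0.301 in Ctrl basal, a log2 change of -0.17 (-0.31 to -0.02) where *Notch3* alone changed by -0.71. The luminal list was lower still, and against it *Notch3* changed by 0.15 (0.02 to 0.27). Fibroblast markers were also lower, with a median of -0.51 over 8 genes (6 lower and 1 higher, or 6 and 0 with counts halved) and 8046 counts against 9848. The part of mural, luminal or fibroblast RNA in the difference of *Notch3* was not tested.

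*Dll4* moved with the endothelial markers, although the gate was meant to remove CD31+ cells. *Pecam1*, which encodes CD31, had 4266 counts in CL basal against 5503 in Ctrl basal (-0.37, -0.43 to -0.31), and *Cdh5* had 5173 and 6462 (-0.32, -0.38 to -0.27). None of the 10 endothelial markers was at 0. Of them 7 were lower and 2 higher (*Emcn* and *Sox18*), or 6 and 0 with counts halved, with a median of -0.31 (range -0.66 to 0.996) and sums of 14872 and 18974 counts. There were 0.0293 counts of *Dll4* for each count of the list in CL basal against 0.0297 in Ctrl basal, a log2 change of -0.02 (-0.20 to 0.17). Other members known from endothelium did not share this, *Hey1* changing by 0.40 against the list (0.23 to 0.57) and *Notch1* by 0.48 (0.40 to 0.55), while the interval of *Notch4* held 0 (0.34, -0.05 to 0.73). The part of endothelial RNA in the difference of *Dll4* was not tested.

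The difference of *Dll1* was seen against the summed basal markers too, most of whose counts came from *Krt14* and *Myh11* (232845 and 290054 in CL basal). The log2 fold change of *Dll1* (0.30) lay inside the range of the single basal markers (-0.23 to 0.50). *Mylk* (0.33) and *Lgr6* (0.50) rose more, and the others rose less or fell. Relative to the summed basal and myoepithelial list, which held 698856 and 671449 counts, *Dll1* changed by 0.25 (0.20 to 0.29), *Jag1* by 0.04 (0.01 to 0.07) and *Hes1* by -0.30 (-0.37 to -0.23). Against the luminal list *Hes1* changed by 0.61 (0.54 to 0.68), so its log2 fold change of -0.24 lay between those of the luminal and the basal markers. The part of luminal RNA in the difference of *Hes1* was not tested.

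**Figure D5:**
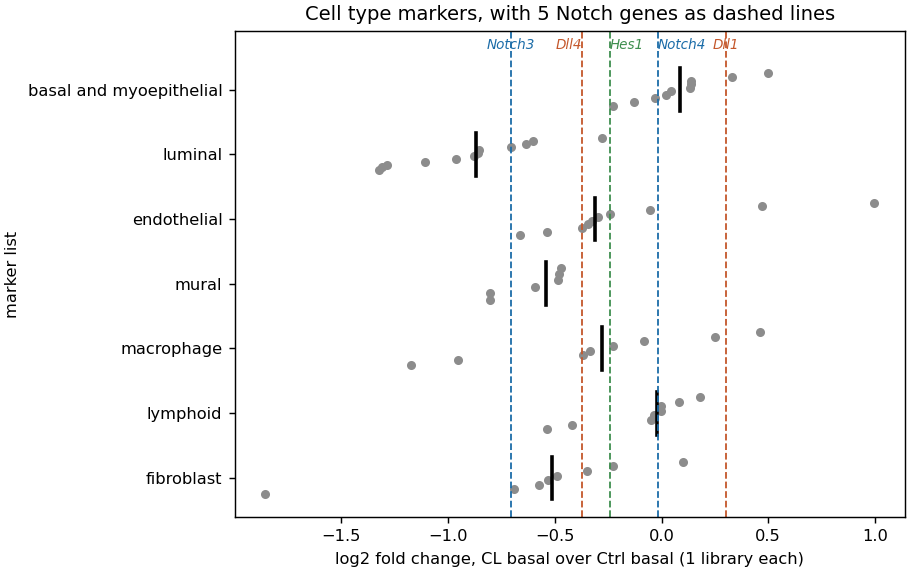
Log2 fold change of CL basal over Ctrl basal for each tested marker (grey points) by cell type list, with the median of the list (black bar) and 5 Notch genes as dashed lines. The line of *Notch3* (-0.71) runs among luminal and mural markers, that of *Dll4* (-0.37) among endothelial markers, and that of *Dll1* (0.30) right of most markers.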

How the data were processed

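The count table deposited by the authors held raw read counts per gene over annotated exons for 2 libraries, in the column layout of featureCounts, with exon coordinates and exon length. Coordinates were taken as GRCm38, the build in the submitters' processing notes. The aligner, annotation release, use of strand and filters were not given in the sources used here. The deposited columns of ratios and log2 ratios were not used. The labels name RNeasy and a SMARTER mRNA library kit, while the methods name RNAiso Plus for RNA isolation.

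Counts were scaled with TMM in edgeR 4.0.16 (R 4.3.3), with factors of 0.987 (CL basal) and 1.01 (Ctrl basal). Genes with at least 20 summed counts were compared by a binomial test, exact and two-sided, (scipy 1.17.1), adjusted by Benjamini-Hochberg over all of them, and called at an adjusted p under 0.05 and at least 2-fold. Log2 fold changes used a prior count of 2, and intervals were exact (Clopper-Pearson). Intervals of ratios of 2 genes came from the normal approximation on the log scale, and the pairs were chosen after their values were seen. The procedure was also run on simulated counts, without spread between libraries and with a coefficient of variation of 0.2. A required result was set only for the run without spread, and the outcomes are not given here. That run does not speak to spread between animals. Other settings were scalings by total counts, DESeq2 1.42.0 or the upper quartile, prior counts of 0.5 and 5, no filter or at least 100 counts, halved counts, removal of a trend on mean expression or gene length, other fold thresholds, and assumed coefficients of variation of 0.1, 0.2 and 0.4. Subtracting the counts of overlapping genes, from fold changes and levels, was added after the data were seen.

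The members and lists were chosen with earlier results of these data known. Named genes were the members, called genes of the pathway list, the genes with the largest and smallest change in each of its classes, markers, and genes overlapping a member. Others named (*Numb*, *Nrarp*, *Hes2*, *Hes3*, *Hes5*, *Hes7*, *Heyl*, *Hey2*, *Adam10*, *Dll3* and *Dner*) were chosen after their values were seen. Replicates were absent, so no model with a spread between samples could be fitted.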

Additional observations from a re-analysis of the deposited data

How the results depend on the processing

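Of 105 values of the 10 members under other scalings, prior counts, filters, halved counts, trend removal and subtraction of overlapping genes, 100 kept their direction and their side of the threshold on the reads, including all of those of *Notch3* (-0.74 to -0.70), *Dll4* (-0.42 to -0.34), *Dll1* (0.22 to 0.32) and *Hes1* (-0.31 to -0.20). With counts halved, and so fewer reads, *Notch1* kept its log2 fold change (0.12), but its adjusted p was just above 0.05 (exact binomial test). *Notch1* and *Jag1* also fell short of the threshold on removal of the trend on mean expression. Removing that trend also turned *Notch2* to -0.0148 and *Notch4* to 0.0804, neither of which passed the test. For the trend, the cause was not tested. These values leave out the preset coefficients of variation: at 0.1 *Dll1*, *Dll4*, *Hes1*, *Jag1* and *Notch1* no longer passed the threshold, and at 0.2 and 0.4 *Notch3* did not either.

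At a 1.5-fold threshold, 1 of 10 members was called lower. Of the 61 tested genes of the pathway list, 7 were lower and 1 higher, beside 8.54% and 4.1% of all tested genes. With no fold threshold, 3 members were lower and 3 higher, and 16 and 24 genes of the list. The shares over all tested genes were then 22.0% and 22.6%. The 3 list genes called lower became 1 with at least 100 counts, 1 with counts halved and 0 at assumed coefficients of variation of 0.2 and 0.4, and 1 list gene was called higher without the trend on mean expression. No paired analysis was possible because there was 1 library in each group, and no library could be left out. Depth limits *Notch4* and the small HES and HEY genes.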
